A study of Mus musculus with 14 samples.

Results

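The 10 genes described here are transcription factors and DNA-binding or chromatin-associated proteins that mark or maintain the pluripotent state of mouse embryonic stem (ES) cells: Pou5f1, Nanog, Sox2, Zfp42, Klf2, Klf4, Esrrb, Utf1, Prdm14 and Dppa4. They were given as a list, and each was read from the array probe set that the platform annotation assigns to that symbol alone, taking the set of highest mean over the 14 arrays where there was more than 1. All 10 were measured, among 19938 genes in all.

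RNA of differentiating mouse ES cells was profiled on 14 Affymetrix arrays, 1 per sample, and all values are log2 RMA expression values, on which a difference of 1 is a 2-fold change. The cells grew as embryoid bodies, free-floating aggregates in which ES cells differentiate, in medium with serum and ascorbic acid. Induced samples received 1 µg/ml doxycycline from day 2, which per the sample titles switches on the transgenes ER71/Etv2, GATA2 and Scl. These encode an ETS factor, a GATA factor and a bHLH factor (Tal1) of blood and vessel formation. Control samples are the same lines without doxycycline, labelled wild-type, so a wild-type line given doxycycline is not among the samples analysed here. The line was iEGS for replicates 1 and 2 and iB1 for replicate 3, so line and replicate cannot be told apart. The groups were control day 2.25 and induced for 6 h (1 array each), control day 2.5 and induced for 12 h (3 each), and control day 3 and induced for 24 h (3 each). The series' text speaks of 3 factors but names a pair of them, and describes independent experiments. Before differentiation the ES cells were kept with LIF on mouse fibroblast feeder cells, and the labels do not say that feeders were removed.

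The labels were borne out by the induced genes: Gata2 was 4.44 ± 0.18 (SE, n = 3 per group) higher on the log2 scale at 12 h and 3.95 ± 0.18 at 24 h, Etv2 3.11 ± 0.19 and 1.94 ± 0.19, and Tal1 2.48 ± 0.24 and 2.30 ± 0.24. Pairwise correlations between arrays ran from 0.951 to 0.995. Induced 24 h replicate 3 stood furthest from the rest, with a mean correlation of 0.966.

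Pluripotent cells are held undifferentiated by a small circuit in which OCT4 (the product of Pou5f1), SOX2 and NANOG bind each other's control regions and those of many other genes. OCT4 and SOX2 bind side by side to a composite DNA element made of a Sox motif and an octamer motif. Around this core, factors of the naive state such as KLF2, KLF4, ESRRB, PRDM14 and REX1 (the product of Zfp42) support self-renewal in the presence of LIF and are normally lost as ES cells pass to an epiblast-like state, whereas OCT4 and NANOG persist in the epiblast and early primitive streak. Each sample is a whole population of embryoid bodies, so fewer cells of a type and less RNA per cell cannot be told apart in any of the values that follow.

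Promoter windows of the core trio are shown because the Oct-Sox element is the best known regulatory sequence of these genes. They are the 250 bases before a transcription start, from RefSeq (GRCm38.p6), 5′ to 3′ on the gene's strand, and capitals mark matches to the letters searched. Windows were found for 8 of the 10 factors (11 windows). The Nanog window is chr6:122707239-122707488 (plus strand), that of Sox2 chr3:34649745-34649994 (plus strand) and that of Pou5f1 chr17:35505782-35506031 (plus strand).
Nanog: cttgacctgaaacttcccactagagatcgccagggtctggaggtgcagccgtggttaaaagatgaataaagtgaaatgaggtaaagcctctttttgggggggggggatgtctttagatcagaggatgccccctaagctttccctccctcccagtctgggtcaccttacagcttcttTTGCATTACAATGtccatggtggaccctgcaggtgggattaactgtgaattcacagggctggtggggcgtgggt
Sox2: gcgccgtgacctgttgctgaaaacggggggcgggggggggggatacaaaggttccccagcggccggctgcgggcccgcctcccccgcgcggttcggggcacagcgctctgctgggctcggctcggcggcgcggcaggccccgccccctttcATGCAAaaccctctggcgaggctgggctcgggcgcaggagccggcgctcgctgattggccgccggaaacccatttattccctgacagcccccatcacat
Pou5f1: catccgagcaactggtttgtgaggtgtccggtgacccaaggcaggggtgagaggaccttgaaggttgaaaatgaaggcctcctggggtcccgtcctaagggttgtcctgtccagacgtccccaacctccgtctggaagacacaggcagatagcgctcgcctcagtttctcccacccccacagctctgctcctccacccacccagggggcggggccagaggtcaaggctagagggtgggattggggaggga

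The capitals in the Nanog window are the Oct-Sox composite (CATTGT, any base, then ATGCAA), read on the opposite strand, 74 to 62 bases before the start. On both strands these letters occurred in 4 of 32851 RefSeq windows of the same length (0.0122%), of which 2 were the overlapping windows of Nanog. The others were windows of Gm31224 and Gm34106. The composite contains both of its parts, which were also searched alone. The octamer core ATGCAA was in 5 of the 11 factor windows and in 9.45% of all windows, and in Sox2 it lay 99 to 94 bases before the start. The Sox letters CATTGT were in 3 of the 11 windows against 10.7% of all. In both counts 2 of the windows are the overlapping ones of Nanog, which hold the same stretch. The Pou5f1 window shown held none of the letters, and its other window held CATTGT and CAGCTG. Of motifs of the induced factor families, the GATA letters AGATAA or TGATAA were in 0 of the 11 windows (16.6% of all windows), the ETS letters CGGAAG or AGGAAG in 1, of Esrrb (39.2%), and the E-box letters CAGATG or CAGCTG in 3 (25.5%). A match in these windows is a description of letters and not a site of binding. Sequence outside the windows was not searched, so letters missing here may lie elsewhere around the gene.

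After 12 h of induction, Nanog was lower and was the only member of the list to pass the test against its control. At 24 h Nanog was again lower, and Pou5f1 and Sox2 also passed the test, lower than in the untreated cells of the same day. The 5 naive factors and the 2 chromatin-associated factors did not pass the test against the control of either day. In untreated cells, and again within the induced cells, Utf1 fell with time. By the limma fit over all genes (Benjamini-Hochberg adjusted p under 0.05), 0 of the 10 were called higher and 1 lower at 12 h, where 0.813% of all genes were called higher, 0.577% lower and 1.39% in either direction. At an unadjusted p under 0.05 the number was also 1 at 12 h, and it was 4 at 24 h. The share of all genes at that unadjusted threshold was not counted, so such numbers, here and below, have no background beside them. At 24 h 0 were called higher and 3 lower, where 2.03% of all genes were called higher, 3.43% lower and 5.46% in either direction. The median difference over the 10 was -0.07 at 12 h and -0.24 at 24 h, beside -0.0087 and -0.0040 over all genes.

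**Figure D1:**
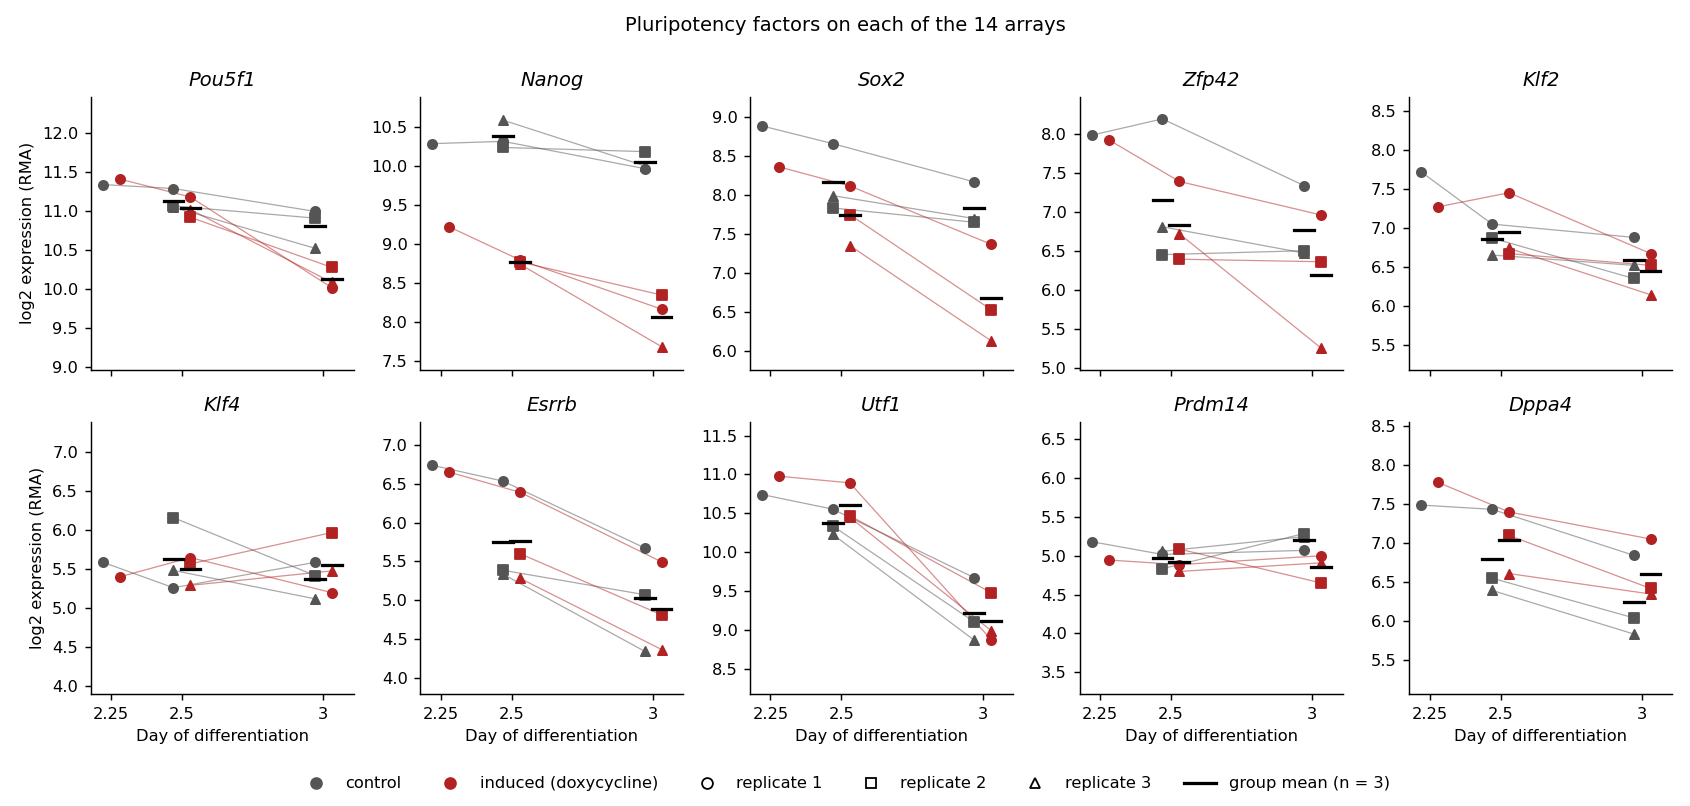
Each panel plots the log2 RMA expression of 1 factor (vertical axis, the same span in every panel) against the day of differentiation (2.25, 2.5 or 3), with control arrays in grey, induced arrays in red, a symbol for each replicate number, thin lines joining arrays of the same number, and black bars at the means of the groups of 3. Nanog is the panel in which every induced array lies below every control array at all 3 times, and in the Utf1 panel every array of day 3, grey or red, lies below every array of day 2.5.

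Nanog, a homeodomain protein that stabilises self-renewal, stood at 10.32, 10.24 and 10.59 in control replicates 1, 2 and 3 of day 2.5 and at 8.79, 8.77 and 8.74 in the replicates induced for 12 h. On day 3 the controls read 9.97, 10.18 and 10.00 and the cells induced for 24 h 8.16, 8.34 and 7.68. Every induced array lay below every control array at both times. Nanog fell by 1.62 ± 0.17 at 12 h (log2, SE), 3.06-fold, with an adjusted p of 9.59e-05 (limma). At 24 h it fell by 1.99 ± 0.17, 3.97-fold, with an adjusted p of 3.4e-06 (limma). Both differences were present in 3 of 3 same-numbered pairs, with pair differences of -1.52, -1.47 and -1.85 at 12 h and of -1.81, -1.84 and -2.32 at 24 h. These calls held in every alternative fit and with each array or replicate number left out.

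The single pair of arrays at 6 h already showed the difference. Nanog read 9.22 in the induced and 10.29 in the control sample of day 2.25, a 2.1-fold lower signal. With 1 array per group this has no replicate check. Nanog was the only factor of the 10 that was at least 2-fold apart in that pair, where 0.135% of all genes were at least 2-fold lower and 0.356% at least 2-fold apart in either direction. The other 9 factors differed by less, Sox2 being 1.44-fold and Klf2 1.36-fold lower, Dppa4 1.22-fold and Utf1 1.18-fold higher.

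In the order of its group means, Nanog ran from control day 2.5 and control day 3, whose difference did not pass the test (0.33 ± 0.17, limma adjusted p 0.83) although their values did not overlap, to induced 12 h, 1.29 below control day 3 (limma adjusted p 0.000432), and then induced 24 h. The step from induced 12 h to induced 24 h was -0.70 ± 0.17, with a limma adjusted p of 0.0499. With default array weights the step between the control days was called (limma adjusted p 0.012). The call between the induced times was lost in 13 of the 15 fits that leave out an array or a replicate number (adjusted p from 0.0598 to 0.467, every one but those without induced 24 h replicate 1 or 2), and with the cell line as a covariate (adjusted p 0.0519), only these groups in the fit (0.204), arrays centred on the median (0.0787), all probe sets tested (0.141) or default array weights (0.13). The induction effect itself did not pass the test for a difference between the times (difference -0.38 ± 0.24, limma adjusted p 0.996).

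Pou5f1 encodes OCT4, the POU factor that pluripotent cells cannot do without. Its signal was 11.29, 11.07 and 11.05 in the controls of day 2.5 and 11.18, 10.92 and 11.02 after 12 h of induction, which overlap. On day 3 it was 10.996, 10.91 and 10.52 in the controls and 10.02, 10.28 and 10.08 after 24 h, which do not. The difference at 12 h was -0.10 (95% interval -0.43 to 0.23, limma adjusted p 0.999). At 24 h Pou5f1 fell by 0.68 ± 0.15 (SE), 1.61-fold, with a limma adjusted p of 0.015, and it was lower in 3 of 3 pairs. This call was lost when the fit held only the groups compared (adjusted p 0.0836), and without control day 3 replicate 1 (0.09) or replicate 2 (0.0773). It was also lost without replicate number 1 (0.0936), 2 (0.206) or 3 (0.0659), and with default array weights (0.118).

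Within the induced cells Pou5f1 dropped by 0.92 ± 0.15 from 12 h to 24 h (1.89-fold, limma adjusted p 0.00652). The drop was seen in 3 of 3 replicate numbers, which were not taken to pair samples across days. The call of this drop was lost without replicate number 2 (0.159) or 3 (0.122), and with default array weights (0.0954). In the controls the step from day 2.5 to day 3 was -0.33 ± 0.15 (limma adjusted p 0.772), though these groups did not overlap. The change of the induction effect between the times was -0.59 ± 0.22, with an unadjusted p of 0.017 and a limma adjusted p of 0.619.

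Sox2 encodes the HMG-box partner of OCT4 and is also a neural progenitor factor. It read 8.66, 7.84 and 7.99 in the controls of day 2.5 and 8.12, 7.75 and 7.35 after 12 h, with overlap between the groups. It read 8.17, 7.65 and 7.70 in the controls of day 3 and 7.37, 6.53 and 6.13 after 24 h, without overlap. Sox2 differed by -0.42 ± 0.30 at 12 h (95% interval -1.07 to 0.22, limma adjusted p 0.999). It fell by 1.17 ± 0.30 at 24 h (2.24-fold, limma adjusted p 0.0349), in 3 of 3 pairs. The call at 24 h was lost without control day 3 replicate 1 (adjusted p 0.166), 2 (0.0675) or 3 (0.0789), induced 24 h replicate 2 (0.125) or 3 (0.141), induced 12 h replicate 2 (0.0529), control day 2.5 replicate 3 (0.0507), or replicate number 2 (0.335) or 3 (0.295). It was lost too when the other 2 groups were dropped from the fit (0.0746), all probe sets were tested (0.131) or default array weights were used (0.299).

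From 12 h to 24 h of induction Sox2 differed by -1.07 ± 0.30 (limma adjusted p 0.109). Replicate 1 was the highest of the 3 in each of the 4 replicated groups, by 0.49 to 1.04 above the mean of the other arrays. The adjusted p of that step was 0.00524 without replicate number 1 and 0.0128 without induced 24 h replicate 1. The same replicate was highest in all 4 groups for Zfp42, Klf2, Esrrb and Dppa4 as well, that is for 5 of the 10 factors, against 13.4% of all genes. Its excess was widest for Zfp42, from 0.84 to 1.57 on the log2 scale, and Esrrb, from 0.90 to 1.17. What sets replicate 1 apart was not tested.

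**Figure D2:**
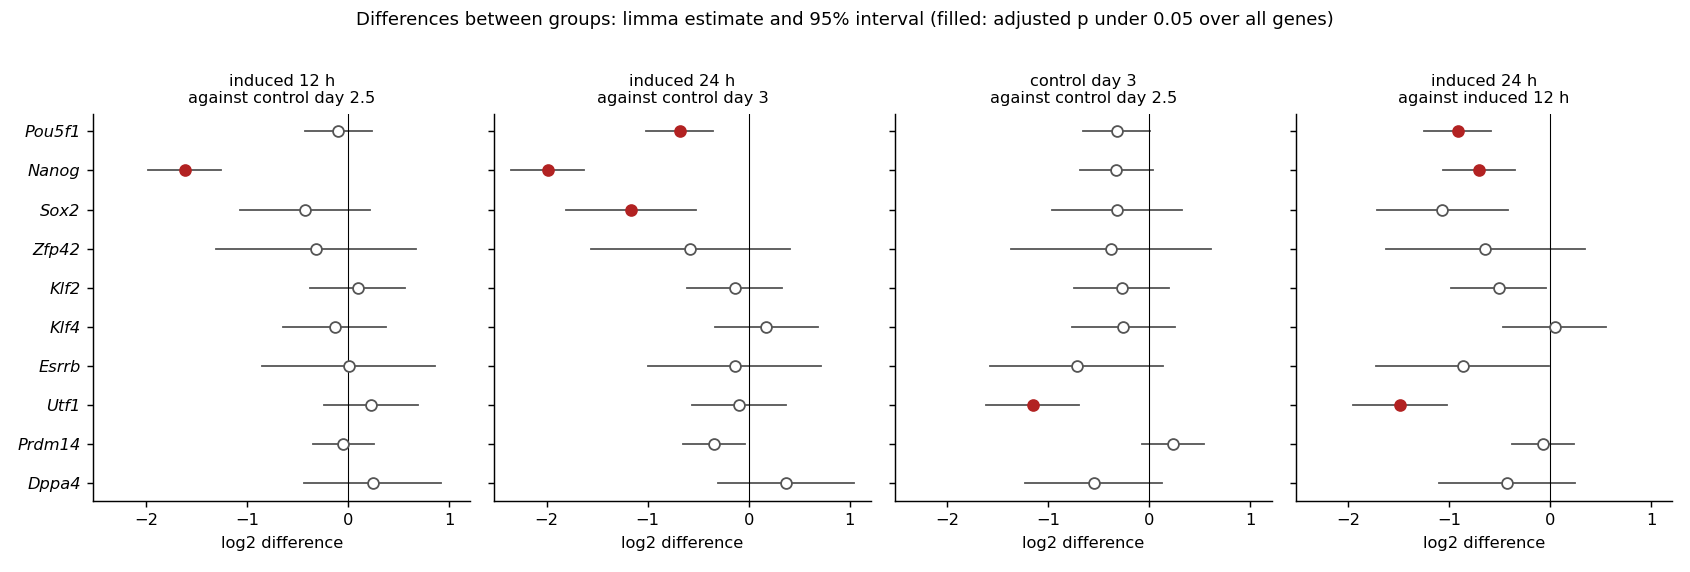
Each panel plots, for 1 comparison, the log2 difference of every factor (horizontal axis, first group minus second) as a point with its 95% interval from limma, filled in red where the adjusted p over all genes was under 0.05. Nanog is filled at 12 h, Nanog, Pou5f1 and Sox2 at 24 h, Utf1 between the control days, and Pou5f1, Nanog and Utf1 between the induced times.

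In the limma fit without a replicate block, the 5 factors of the naive network passed the test in none of the 5 comparisons. At an unadjusted p under 0.05, 0 of them differed at 12 h, 1 at 24 h and 0 between the control days. Between the induced times 2 did, Klf2 (-0.51 ± 0.22) and Esrrb, each lower at 24 h in 3 of 3 replicate numbers. The numbers were not taken to pair samples across days. For the change of the induction effect 0 of the 5 factors did. Zfp42 encodes REX1, a zinc finger protein used as a marker of undifferentiated cells. It ran from 6.45 to 8.20 in the controls of day 2.5, 6.39 to 7.39 at 12 h, 6.47 to 7.34 in the controls of day 3 and 5.25 to 6.96 at 24 h. It differed by -0.32 ± 0.46 at 12 h and by -0.58 ± 0.46 at 24 h (95% interval -1.57 to 0.41, limma adjusted p 0.595). These errors include the offset of replicate 1. Zfp42 was lower in 3 of 3 same-numbered pairs at both times. The pair differences were -0.80, -0.06 and -0.09 at 12 h and -0.38, -0.14 and -1.22 at 24 h. The lowest value, 5.25, was that of induced 24 h replicate 3, the array that stood apart. The interval does not exclude a fall of the size seen for Sox2.

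Klf2 and Klf4 are Krüppel-like zinc finger factors, the second a target of LIF and STAT3. Klf2 lay between 6.65 and 7.05 in the controls of day 2.5 and between 6.67 and 7.45 after 12 h of induction. On day 3 it lay between 6.35 and 6.88 in the controls and between 6.14 and 6.67 after 24 h, overlapping throughout. Its difference was 0.10 ± 0.22 at 12 h and -0.14 ± 0.22 at 24 h (95% interval -0.61 to 0.33). Klf4 lay between 5.12 and 6.16 on all 12 arrays and differed by -0.13 ± 0.24 at 12 h and 0.17 ± 0.24 at 24 h (95% interval -0.34 to 0.68). The signs of both genes' differences changed when single arrays were left out.

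Esrrb encodes an orphan nuclear receptor that takes part in naive self-renewal. It read 6.53, 5.39 and 5.34 in the controls of day 2.5 and 6.39, 5.60 and 5.28 after 12 h. On day 3 it read 5.67, 5.07 and 4.35 in the controls and 5.50, 4.81 and 4.37 after 24 h. Replicate by replicate the induced and the control values lay close together, and both were lower on day 3. Induction gave a difference of 0.01 ± 0.40 at 12 h and -0.14 ± 0.40 at 24 h (95% interval -0.99 to 0.72). These errors are of the fit without a replicate block, so they include the offset of replicate 1. The pair differences were -0.14, 0.21 and -0.05 at 12 h and -0.18, -0.26 and 0.02 at 24 h. The step between the control days was -0.72 ± 0.40 (limma adjusted p 0.897), downward in 3 of 3 numbers. That between the induced times was -0.86 ± 0.40 (limma adjusted p 0.405), also downward in 3 of 3 numbers. With the replicate number as a block both steps were called (limma adjusted p 0.0157 between the control days). The numbers were taken to pair samples only within a day.

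Prdm14, a PR-domain protein that represses FGF signalling and DNA methylation genes, had a mean signal at percentile 40.8 of all genes, where RMA understates differences. Its values were 5.07, 5.28 and 5.24 in the controls of day 3 and 4.998, 4.65 and 4.91 after 24 h, which do not overlap. The difference of -0.35 ± 0.14 had an unadjusted p of 0.0289 and a limma adjusted p of 0.234. At 24 h 4 of the 10 factors did not overlap between the groups, where 18.5% of all genes did not. At 12 h this held for 1 factor, against 14.5%, between the control days for 4, against 13.6%, and between the induced times for 3, against 15.4%.

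Utf1, a chromatin-associated protein found in pluripotent and germ cells, was lower on day 3 than on day 2.5 with and without doxycycline. It read 10.55, 10.34 and 10.23 in the controls of day 2.5 and 10.89, 10.47 and 10.45 after 12 h of induction. On day 3 it read 9.67, 9.11 and 8.87 in the controls and 8.88, 9.48 and 8.99 after 24 h. Both days' groups overlapped between control and induced, while day 3 lay below day 2.5 on every array. The induction difference was 0.23 ± 0.22 at 12 h and -0.10 ± 0.22 at 24 h (95% interval -0.56 to 0.36, limma adjusted p 0.86).

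Between the control days Utf1 fell by 1.16 ± 0.22 (2.23-fold, limma adjusted p 0.0195). It was the 1 factor of 10 called there, with 0 called higher, where 0.562% of all genes were called higher, 0.196% lower and 0.757% in either direction. The call was lost without control day 2.5 replicate 1 (adjusted p 0.0858), 2 (0.0874) or 3 (0.0596), control day 3 replicate 2 (0.0973) or 3 (0.144), or replicate number 2 (0.585) or 3 (0.415), and with all probe sets tested (0.112). In the induced cells Utf1 dropped by 1.49 ± 0.22 from 12 h to 24 h (2.80-fold, limma adjusted p 0.00256), a call lost without replicate number 2 (0.0797) or 3 (0.072). It shared that direction with Pou5f1 and Nanog, so 3 of the 10 were called lower and 0 higher, where 1.25% of all genes were called lower, 0.557% higher and 1.81% in either direction. The test found no difference between the fall in the induced cells and that in the controls (difference -0.33 ± 0.31, limma adjusted p 0.999). Across the 10 factors 9 were lower on control day 3 than on day 2.5 by any amount, with a median of -0.33 beside -0.01 over all genes. Prdm14 was the exception at 0.23 ± 0.14.

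No factor passed the test for a change of the induction effect from 12 h to 24 h (0 of 10, 1 at an unadjusted p under 0.05, against 0.426% of all genes called). Nanog and the others named above at 24 h are therefore not shown to respond differently at the later time. The day 3 controls enter both the 24 h comparison and that between the control days.

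Dppa4, a SAP-domain nuclear protein of pluripotent cells, had values from 6.39 to 7.43 in the controls of day 2.5, 6.61 to 7.40 at 12 h, 5.83 to 6.84 in the controls of day 3 and 6.34 to 7.05 at 24 h. Its difference was 0.24 ± 0.31 at 12 h and 0.37 ± 0.31 at 24 h (95% interval -0.31 to 1.04, limma adjusted p 0.623), above the control in 3 of 3 pairs at 24 h. Dppa4 is the 1 factor with 2 probe sets, and they gave different sizes for the step between control days: -0.55 ± 0.31 for the set used and -1.19 ± 0.55 for the other (limma adjusted p 0.913 and 0.753). For induction at 24 h the other set gave 0.21 ± 0.55.

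**Figure D3:**
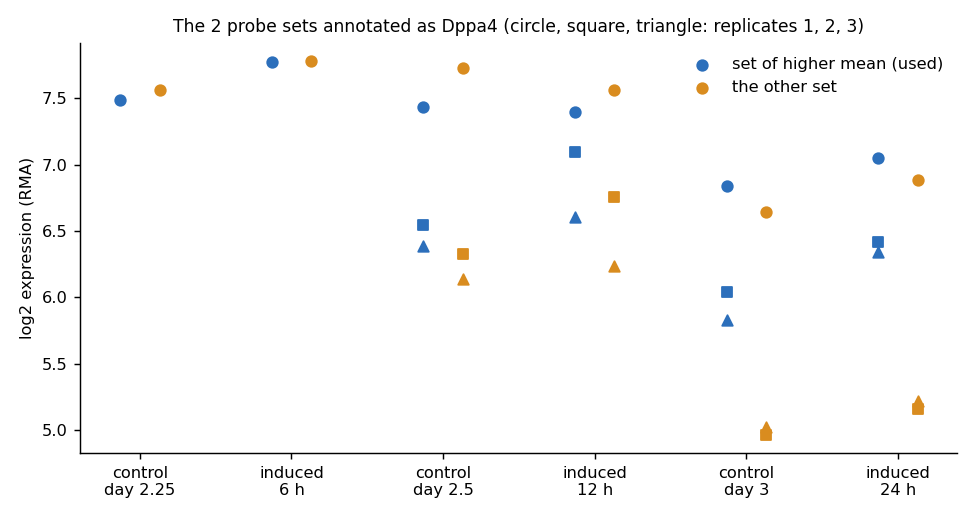
The log2 RMA expression of the 2 probe sets annotated as Dppa4 is plotted for each of the 14 arrays by group, with 1 symbol per replicate number. The set used (blue) ran from 5.83 to 6.84 in the controls of day 3 and the other (orange) from 4.96 to 6.64, and replicate 1 was the highest in every group of 3 in both.

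Genes around the circuit were read from lists chosen with earlier results of these data known. Of 26 other ES cell genes, 1 was called higher and 2 lower at 12 h and 1 higher and 3 lower at 24 h (with the replicate number as a block, 2 higher and 5 lower at 24 h). The medians of the list were -0.12 and -0.21. Tbx3, a T-box factor of the naive circuit that also acts in mesoderm and endoderm, rose by 1.26 ± 0.16 at 12 h and 0.82 ± 0.16 at 24 h (limma adjusted p 0.000498 and 0.00544). It rose in the untreated cells too, by 1.32 ± 0.16 from day 2.5 to day 3 (adjusted p 0.000769), where 0 of the 10 factors were called higher. Sall4, a zinc finger partner of OCT4 and NANOG, fell by 0.64 ± 0.13 at 24 h (limma adjusted p 0.00965). Between the control days the list had 1 gene called higher and 2 lower, Gdf3 (-1.33 ± 0.22), a TGF-beta ligand, and Lefty1.

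Nodal and activin signalling feeds Nanog transcription through SMAD2 and SMAD3. Of 12 genes of this pathway, 0 were called higher and 3 lower at 12 h, and 0 higher and 5 lower at 24 h. The list includes the inhibitors Lefty1 and Lefty2, so the counts do not measure the strength of the input to Nanog. The part of this pathway in the fall of Nanog was not tested. Nodal itself, the ligand, fell by 0.97 ± 0.19 at 12 h and 1.54 ± 0.19 at 24 h. Its co-receptor Tdgf1 fell by 0.64 ± 0.13 and 2.17 ± 0.13. The feedback inhibitor Lefty1 fell by 1.54 ± 0.23 and 1.94 ± 0.23, and Lefty2 fell by 1.99 ± 0.27 at 24 h. The receptor Acvr2b fell by 0.75 ± 0.18 at 24 h, and the list's medians were -0.22 and -0.38. Tdgf1 and Lefty1 are counted among the other ES cell genes as well. By the limma fit 0 of 9 genes of the LIF and STAT3 pathway, which supports the naive factors, were called in either direction at 12 h or at 24 h (2 at each time at an unadjusted p under 0.05; with the replicate block, 2 higher and 0 lower at 24 h).

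Genes of the epiblast, the state that follows the naive one, were called lower at the times when Nanog was. Of 17 measured, 0 were called higher and 9 lower at 12 h, and 0 higher and 14 lower at 24 h, with medians of -0.74 and -1.84. Fgf5, a growth factor marking the epiblast, fell by 1.78 ± 0.18 and 3.63 ± 0.18. Otx2, a homeodomain factor of the same state, fell by 2.21 ± 0.16 at 24 h. Zic2 and Zic5, zinc finger factors, fell by 2.69 ± 0.21 and 2.20 ± 0.15 at 24 h, and the kinase gene Pim2 fell by 2.81 ± 0.21. Cdh2, N-cadherin, fell by 3.41 ± 0.22 at 24 h although it rose by 1.72 ± 0.22 between the control days. There it was the 1 gene of the list called higher, and Foxd3, named after its value was seen, the 1 called lower (-0.80 ± 0.14).

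Of 12 measured genes known to repress the pluripotency circuit, 0 were called at 12 h by limma (5 at an unadjusted p under 0.05), and at 24 h 1 was called higher and 2 lower. With the replicate number as a block, 2 were called higher and 0 lower at 12 h. Zeb2, a repressor of epithelial genes, rose by 1.11 ± 0.20 at 24 h. Nr6a1, the nuclear receptor GCNF that silences Pou5f1 during differentiation, fell by 0.79 ± 0.14 at 24 h, when Pou5f1 was also lower. Snai1 fell by 2.62 ± 0.18 at 24 h after rising by 1.36 ± 0.18 between the control days. Gata6, an endoderm factor, rose by 1.63 ± 0.21 between the control days and differed by -0.49 ± 0.21 at 24 h (limma adjusted p 0.278).

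**Figure D4:**
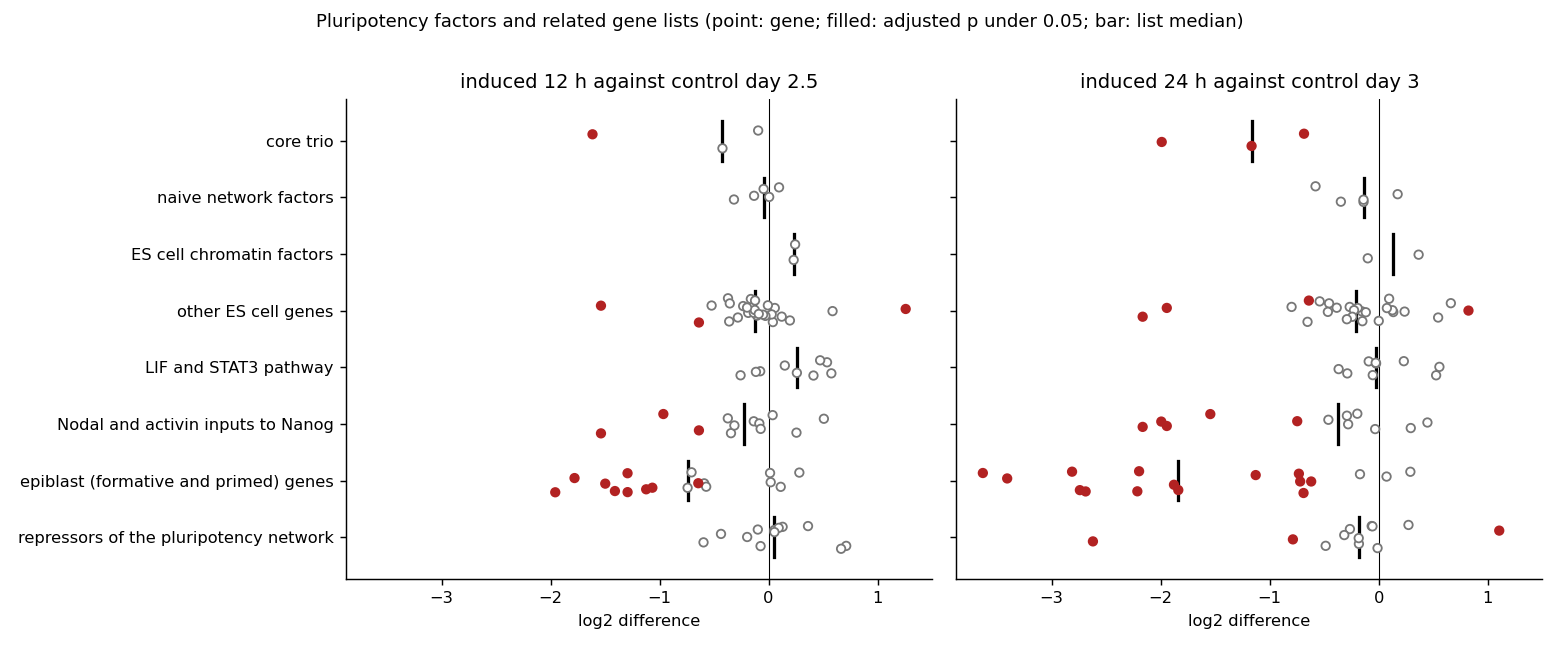
Each row is a gene list and each point a gene, at its log2 difference between induced and control cells at 12 h (left) and 24 h (right), filled in red where the limma adjusted p was under 0.05, with a black bar at the list's median. The epiblast row has medians of -0.74 and -1.84. The naive network row has medians of -0.05 and -0.14 and runs from -0.58 (Zfp42) to 0.17 (Klf4) at 24 h. Neither this row nor the LIF and STAT3 row has a filled point.

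Markers of other cell types moved with the induction. The mean level of 12 endothelial markers lay between 4.98 and 5.29 in the controls of day 2.5 and between 6.03 and 6.44 after 12 h. It lay between 5.25 and 5.39 in the controls of day 3 and between 6.89 and 7.47 after 24 h, with 7 called higher at 12 h, 8 at 24 h and 0 lower at either. For 11 primitive streak markers it lay between 6.80 and 7.39 against 5.90 and 6.35 at 12 h, and between 8.18 and 8.50 against 5.47 and 5.73 at 24 h, with 5 and 10 called lower and 0 higher. Their part in the fall of Nanog, Pou5f1 and Sox2 was not tested. Of 11 measured feeder fibroblast markers, 0 were called at 12 h by limma (1 at an unadjusted p under 0.05) and 1, Thy1, was higher at 24 h (0.98 ± 0.25). Their mean level lay between 5.02 and 5.43 in the controls of day 2.5, between 5.28 and 5.41 at 12 h, between 5.06 and 5.31 in the controls of day 3 and between 5.05 and 5.43 at 24 h.

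Over the 12 replicated arrays, the genes with the pattern most like that of Nanog were Trh (Pearson r 0.986), Tnfrsf19 (0.975) and Pim2 (0.973). For Pou5f1 they were Foxp1 (0.979), Grb7 (0.965) and Tmem63a (0.965), for Sox2 Tnrc6c (0.973), Resf1 (0.97) and Zscan10 (0.967), and for Utf1 Lrwd1 (0.97), Uchl1 (0.956) and Anxa11 (0.95). Among the 10 factors the closest pair was Esrrb and Dppa4 (0.889), followed by Klf2 and Esrrb (0.866) and Zfp42 and Esrrb (0.851). Pou5f1 and Nanog had an r of 0.683. These are descriptions over arrays that share their groups and replicate numbers.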

How the data were processed

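RNA of 14 embryoid body samples was measured on 1 Affymetrix array each, after amplification of the cDNA. The authors ran RMA in Affymetrix Expression Console according to the submitters' processing notes, and deposited log2 values. The sources used here give no version of either. RMA pulls arrays towards a common distribution and compresses dim genes. The standard deviation of the gene values still differed between arrays, from 1.91 on induced 24 h replicate 3 to 2.23 on the induced 6 h array. Whether all 14 arrays were normalized together is not stated. The number of arrays limits the precision. Of 35556 probe sets, 21789 had 1 symbol in the platform annotation, 1621 several, and 12146 none listed. RefSeq gene identifiers (GRCm38.p6) matched 21698 of these and changed 0 symbols. The set of highest mean stood for each of the 999 genes with several sets, leaving 19938 genes.

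The 12 arrays of the 4 groups of 3 entered 1 fit in limma 3.58.1 under R 4.3.3 (group means, lmFit and eBayes, 8 residual and 6.05 prior degrees of freedom), and a gene was called where its Benjamini-Hochberg adjusted p over all genes was under 0.05. The script was tested on simulated data. Errors are standard errors. The members and all gene lists were chosen with earlier results of these data known. Named were all 10 factors, the 3 induced factors, and of each list every gene called at 12 h, 24 h or between control days where 6 or fewer were, otherwise the 6 of smallest p. For each called factor, the 3 genes of highest Pearson correlation were named too.

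Same-numbered samples deviated together from their group means within a day (correlations 0.573, 0.344 and 0.262 for replicates 1, 2 and 3 of day 2.5, and 0.517, 0.157 and 0.261 of day 3), so the numbers were taken to pair them there. Replicates 2 and 3 of day 3 each correlated at up to 0.375 with another number, above the value for their own. Across days not all same-number correlations exceeded 0.1. Alternatives covered the replicate block, line, samples fitted, scaling, dim genes (below percentile 40), probe set choice, variance model, array weights and leaving out arrays or numbers.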

Additional observations from a re-analysis of the deposited data

How the results depend on the processing

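The fall of Nanog at 12 h and 24 h kept its direction and its call in every alternative run. The number of factors called was 1 at 12 h throughout. Leaving out 1 array or replicate number, it ran from 1 to 3 at 24 h, from 0 to 1 between the control days and from 0 to 4 between the induced times. With the replicate number as a block it was 2 between the control days (Esrrb and Utf1) and 5 between the induced times (Pou5f1, Nanog, Sox2, Esrrb and Utf1), and no factor's call against the control of the same day changed. It was 1 at 24 h with only the groups compared in the fit, 0 between the control days with all probe sets tested, and, with limma's default array weights, 1 at 24 h, 2 between the control days and 1 between the induced times. That weight estimation stopped before convergence, and weights estimated gene by gene, added after the data were seen, gave 4 at 24 h.

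The signs of differences near 0 turned. Klf4 at 24 h was -0.030 with default array weights, Esrrb at 12 h was -0.0019 with arrays centred on the median, and Utf1 at 24 h was 0.22 with gene-by-gene weights. Leaving out arrays or numbers, differences ran from -0.67 to 0.20 (Zfp42, 12 h), -0.73 to 0.14 (Zfp42, control days), -0.15 to 0.24 (Klf2, 12 h), -0.29 to 0.012 (Klf2, 24 h), -0.39 to 0.13 (Klf4, 12 h), -0.037 to 0.46 (Klf4, 24 h), -0.55 to 0.0022 (Klf4, control days), -0.31 to 0.40 (Esrrb, 12 h), -0.48 to 0.18 (Esrrb, 24 h), -0.34 to 0.25 (Utf1, 24 h), -0.62 to 0.072 (Utf1, change between times) and -0.19 to 0.061 (Prdm14, 12 h). The causes were not tested. Over all alternatives the number of genes called of 19938 ran from 80 to 1885 at 12 h (277 as reported), 392 to 2638 at 24 h (1088), 17 to 1350 between the control days (151), 21 to 1496 between the induced times (360) and 2 to 318 for the change of effect (85). Quantile normalization again moved the split between the induced times from 111 higher and 249 lower to 197 and 248, and that of the change of effect from 20 and 65 to 48 and 82. For the lists the counts ran, at 12 h and 24 h, from 3 to 13 and 9 to 14 (epiblast), 0 to 6 and 4 to 8 (Nodal and activin), 1 to 5 and 2 to 7 (other ES cell genes), 0 to 5 and 1 to 4 (repressors) and 0 to 2 at both (LIF and STAT3). For the named listed genes and the induced factors, only the 36 results called in the main fit were refitted. Of their 936 refits, 63 lost the call and 0 reversed. Some refits left out an array of a group outside the comparison, which leaves the difference as it was. Listed genes not called in the main fit are not in this count.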

Other observations

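Other ES cell genes changed between the induced times. Of 26, 1 was called higher and 4 lower from 12 h to 24 h of induction, against 1.81% of all genes called in either direction. Tbx3 rose by 0.88 ± 0.16 (limma adjusted p 0.0105). Tdgf1 fell by 1.46 ± 0.13, Lefty1 by 1.55 ± 0.23 and Gdf3 by 0.96 ± 0.22. L1td1, an RNA-binding protein gene of ES cells that was named after its value was seen, fell by 1.14 ± 0.22 (limma adjusted p 0.0178). Of the 12 Nodal and activin genes, 4 were called lower and 0 higher over the same interval, including Nodal (-0.98 ± 0.19) and Lefty2 (-1.21 ± 0.27).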
